A study of Mus musculus with 8 samples.

Results

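Wnt pathway ligands, receptors and inhibitors were examined in single-cell RNA sequencing of the frontal isocortex of mice at postnatal day 7. The members were the genes whose symbol is Wnt, Fzd, Sfrp or Dkk followed by a digit, together with Lrp5, Lrp6, Axin1, Axin2, Tcf7, Tcf7l1, Tcf7l2, Lef1, Wif1, Frzb, Ctnnb1, Apcdd1, Ror1, Ror2 and Ryk. This gave 48 of the 18141 genes in the deposited tables. They were 16 ligands, 10 Frizzled receptors, 5 coreceptors and alternative receptors, 9 secreted inhibitors, 1 membrane inhibitor, 3 genes of the destruction complex and its target, and 4 nuclear factors.

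Wnt ligands are secreted lipid-modified proteins that bind Frizzled receptors together with the coreceptors Lrp5 and Lrp6, or act through Ror1, Ror2 and Ryk. In the canonical branch this binding stops a complex built on Axin1 or Axin2 from destroying beta-catenin, the product of Ctnnb1, which then enters the nucleus and activates genes with the factors Tcf7, Lef1, Tcf7l1 and Tcf7l2. Sfrp proteins, Frzb and Wif1 bind the ligands outside the cell, Dkk proteins act on the coreceptors, and Apcdd1 acts in the membrane. Axin2 and Lef1 are widely used as readouts of the pathway, which is known in the postnatal brain for its part in vessel barrier formation, oligodendrocyte maturation and synapse development.

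Every animal carried floxed Foxp2 alleles on both chromosomes, and control littermates lacked Cre. The conditional knockouts (cKO) also carried Emx1-Cre, a driver active in the lineage of cortical excitatory neurons and glia. Cells were sorted for red fluorescence from Drd1a-tdTomato, a bacterial artificial chromosome transgene that reports the dopamine D1 receptor gene (D1Tom), or for green fluorescence from golli-τ-eGFP (GTE), a transgene driven by the golli promoter of the myelin basic protein gene. The groups were therefore D1Tom control, D1Tom cKO, GTE control and GTE cKO, each with 2 libraries that the design text calls independent replicates. In D1Tom, cKO 2 came from a male and the other libraries from females, and in GTE, cKO 2 came from a female and the others from males. In D1Tom, control 1 and cKO 1 were prepared on 1 day and control 2 and cKO 2 on another, and each pair is called a batch. The labels repeat these days for GTE, but with the sexes of the D1Tom libraries, so GTE numbers were not used as batches. The p-values below weigh group differences against the spread between these few libraries. Unless a block is named, they come from fits that leave the batch out.

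The D1Tom libraries held 2395 to 3206 cells and 27323298 to 36379194 counts each, and the GTE libraries 1440 to 3948 cells and 4878370 to 6092396 counts. GTE cKO 1 stood apart, with 1440 cells at a median of 2982 counts against medians of 1085.5 to 1268 in the other GTE libraries. Libraries shared 4 to 27 cell barcodes with one another. The ratio of cells' values of 2 to values of 1 ran from 0.307 in D1Tom cKO 2 to 1.69 in D1Tom control 1, so the deposited values were not treated as plain numbers of molecules. Foxp2 stood at 36.3 and 39.1 CPM (a gene's counts scaled to equal library totals) in the D1Tom controls and at 26.5 and 19.4 CPM in cKO, and in GTE at 9.52 and 46.9 against 25.4 and 7.43 CPM, where the groups overlapped. Whether the counted 3' ends lie in the deleted exons is not given in the sources used here. Emx1, the gene the driver is named after, stood at 24.5 and 25.9 CPM in the D1Tom controls against 12.3 and 10.4 CPM in cKO. In GTE it stood at 25.6 and 18.9 against 9.47 and 14.1 CPM. Only the cKO carried Cre, so the Foxp2 deletion and the driver cannot be told apart in any comparison of genotype. Although the sorted cells are called neurons in the design text, neuron-like clusters made up 32.9% of the D1Tom cells and glia-like clusters 27.6%. In GTE 80.3% of the cells lay in clusters left unnamed by the marker rule, so GTE types are mostly given by number. Cajal-Retzius-like cells, the only neuron-like type there, made up 0.125%.

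Promoter sequences are shown for 4 members whose levels across cell types are described next. Among the D1Tom types with enough cells to be fitted, Lef1, Tcf7 and Axin2 had their 2 highest levels in the same populations, astrocyte-like cells and cluster 6, and Dkk2 its highest in interneuron-like cells. Sequences are from RefSeq (GRCm38.p6), from 250 bases before to 50 bases after a transcription start, 5′ to 3′ on the gene's strand. Capitals mark CTTTG or its reverse complement CAAAG, the core letters that Tcf and Lef factors are known to bind. The Lef1 window is chr3:131110047-131110346 (plus strand), that of Tcf7 chr11:52282965-52283264 (minus strand), that of Axin2 chr11:108920099-108920398 (plus strand) and that of Dkk2 chr3:132085042-132085341 (plus strand).
Lef1: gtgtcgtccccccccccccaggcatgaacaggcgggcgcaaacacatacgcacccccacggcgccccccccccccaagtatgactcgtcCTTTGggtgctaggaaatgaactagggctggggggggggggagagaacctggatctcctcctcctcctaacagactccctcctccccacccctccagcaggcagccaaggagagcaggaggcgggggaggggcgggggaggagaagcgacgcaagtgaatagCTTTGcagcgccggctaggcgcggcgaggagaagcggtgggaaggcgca
Tcf7: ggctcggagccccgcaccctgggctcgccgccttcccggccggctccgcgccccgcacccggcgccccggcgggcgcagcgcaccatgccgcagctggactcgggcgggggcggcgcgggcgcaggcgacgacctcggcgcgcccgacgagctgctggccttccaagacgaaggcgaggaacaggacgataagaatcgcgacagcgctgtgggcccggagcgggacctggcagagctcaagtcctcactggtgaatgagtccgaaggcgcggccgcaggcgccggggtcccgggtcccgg
Axin2: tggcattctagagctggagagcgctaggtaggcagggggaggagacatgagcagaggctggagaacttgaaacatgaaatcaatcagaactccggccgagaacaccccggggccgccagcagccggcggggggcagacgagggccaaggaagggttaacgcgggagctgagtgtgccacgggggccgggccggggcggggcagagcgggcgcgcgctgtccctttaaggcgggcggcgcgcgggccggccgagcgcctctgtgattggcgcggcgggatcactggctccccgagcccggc
Dkk2: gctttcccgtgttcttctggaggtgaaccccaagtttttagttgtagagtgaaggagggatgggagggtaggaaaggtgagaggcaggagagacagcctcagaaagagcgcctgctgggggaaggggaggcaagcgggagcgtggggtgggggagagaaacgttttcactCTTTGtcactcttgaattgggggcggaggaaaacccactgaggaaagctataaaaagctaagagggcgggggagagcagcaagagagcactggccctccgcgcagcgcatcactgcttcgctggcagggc

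The Lef1 window shown held 2 cores and the Dkk2 window 1, and those of Tcf7 and Axin2 held 0. Lef1 had further windows at other starts, with 2, 1 and 3 cores, and Tcf7 another with 0. The Tcf7 window shown also holds the letters atg, followed by triplets without a stop up to its end, as coding sequence can have. It may therefore lie past the first start of the gene, and its lack of cores may not describe the main promoter. Which start these cells use was not tested. The RefSeq table matched 34 of the 48 members, with 43 promoters. The core was found on either strand in 23 of these 43 promoters (53.5%), against 53.9% of all 32851 promoters in the table. The longer form CTTTGAT, or ATCAAAG on the other strand, was found in 2 member promoters, those of Wnt5b and Wnt11, and in 3.73% of all promoters. These are matches of letters only, and a window without a match says nothing about binding elsewhere.

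The level of each member was next described across the 14 D1Tom cell types or clusters with at least 30 cells in every library. Members of the pathway were left out of the clustering. Among these fitted types, Wnt7b, Wnt4 and Wnt5a were highest in neuron-like types, while Wnt7a, several Frizzled receptors, Axin2 and all 4 nuclear factors were highest in astrocyte-like cells or in cluster 6, led by Pla2g7, Apoe, Slc7a10 and Hes5. All levels are CPM of the type within a library, given as the mean of the 4 libraries, for some with their range. Where no range is given, the highest mean does not show that the type was clear of the others. Types are compared for 1 gene at a time, and no test was made between them because they are clusters of the same cells. In sums over all cells, fewer cells of a type and less RNA per cell cannot be told apart.

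Among the ligands, Wnt7b stood at 264 CPM (141.0 to 359) in Cajal-Retzius-like cells, the early-born Reln-expressing neurons of layer 1. The next type was excitatory neuron-like cells at 136 CPM (97.3 to 166), and these ranges overlapped. Layer 6 corticothalamic-like cells had 103 CPM. Wnt4 also had its highest mean in Cajal-Retzius-like cells, at 42.2 CPM (16.1 to 62.0), a range that overlapped those of 5 other fitted types. Wnt5a, a ligand of the non-canonical branch, stood at 67.1 CPM (57.7 to 83.8) in interneuron of caudal origin-like cells, clear of the next type, neuroblast-like cells at 33.6 CPM (26.2 to 51.6). Wnt7a reached 68.0 CPM in cluster 6 and 43.3 CPM in astrocyte-like cells. Of the 16 ligands, 8 had a mean below 1 CPM over all D1Tom cells.

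Among the receptors, Fzd3, which acts in axon guidance and planar polarity, stood at 169 CPM in cluster 1, led by Pfkp, Ptprk and Arpp21, and at 149 CPM in layer 6 corticothalamic-like cells. Fzd1 had its highest mean in astrocyte-like cells (33.5 CPM), and Fzd2 and Fzd10 in cluster 6 (46.2 and 46.8 CPM). Fzd10 was next highest in astrocyte-like cells at 39.3 CPM, and Fzd2 in dividing-like cells at 29.6 CPM. Ryk ranged from 24.8 CPM in cluster 10 to 80.9 CPM in neuroblast-like cells, and Lrp6 from 14.6 CPM in cluster 10 to 53.8 CPM in cluster 1. The range of the highest type overlapped that of 1 other fitted type for Fzd10, 2 for Fzd2 and 4 for Fzd1. It overlapped those of 6 for Fzd3 and Ryk and 11 for Lrp6.

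Among the secreted inhibitors, Dkk3, a divergent member of its family, stood at 288 CPM (220.3 to 373) in Cajal-Retzius-like cells, above the next type, cluster 6 at 139 CPM, in all 4 libraries. Dkk2 stood at 63.4 CPM (37.8 to 97.9) in interneuron-like cells, whose leading genes include Lamp5, Reln and Ndnf, and at 19.5 CPM in the next type without overlap. The Dkk2 level there was 12.7 times the mean of the other named types that were fitted. Sfrp1 was highest in neuroblast-like cells at 146 CPM, with a wide range of 28.5 to 282 CPM. Sfrp2 stood at 35.2 and 33.8 CPM in interneuron-like cells of medial and of caudal origin, with overlapping ranges.

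Of the downstream genes, Axin2 stood at 60.6 CPM (50.5 to 74.4) in cluster 6 and 51.7 CPM (38.7 to 66.5) in astrocyte-like cells, and its lowest mean was 6.98 CPM in cluster 10, led by Mgst3 and Cox6a1. Lef1 stood at 41.9 CPM in astrocyte-like cells, 6.9 times the mean of the other named types that were fitted, and at 34.4 CPM in cluster 6. Of the fitted types, Tcf7 was highest in cluster 6 at 17.1 CPM and Tcf7l1 in astrocyte-like cells at 27.5 CPM. Endothelial-like cells, too few to be fitted, lay above all fitted types for Lef1 (124 to 155 CPM over libraries) and Tcf7 (91.5 to 131 CPM). Tcf7l2, a factor needed for oligodendrocyte maturation, reached 97.6 CPM in cluster 6, its highest fitted type. Committed oligodendrocyte precursor-like cells, which were too few in 2 libraries to be fitted, had Tcf7l2 at 588 and 459 CPM for control 1 and 2 and at 486 and 352 CPM for cKO 1 and 2, above its level in every fitted D1Tom type. Ctnnb1 was broad, from 161 CPM in cluster 6 to 359.8 CPM in cluster 10.

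Among the fitted GTE types, astrocyte-like cells held the highest level of several of these genes. Axin2 stood at 116 CPM (95.0 to 137) there, above the next type, dividing-like cells at 42.5 CPM, in every library. Fzd10 stood at 89.9 CPM (67.0 to 112), 12.7 times the mean of the other named types that were fitted, Fzd1 at 79.4 CPM and Dkk3 at 140.4 CPM. That ratio leaves out cluster 0, which is unnamed and led by Cldn10, Apoe and F3. Cluster 0 was the next type for Fzd10, Fzd1 and Dkk3, at 38.6, 36.7 and 91.7 CPM. Its range overlapped that of astrocyte-like cells for each of these genes. In the 14 Cajal-Retzius-like cells of GTE, which were not fitted and of which control 1 had 0, Dkk3 was higher, at 735, 237 and 644 CPM for control 2, cKO 1 and cKO 2. Tcf7l2 was highest in committed oligodendrocyte precursor-like cells at 306 CPM, with a range of 71.7 to 559 CPM over libraries.

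**Figure D1:**
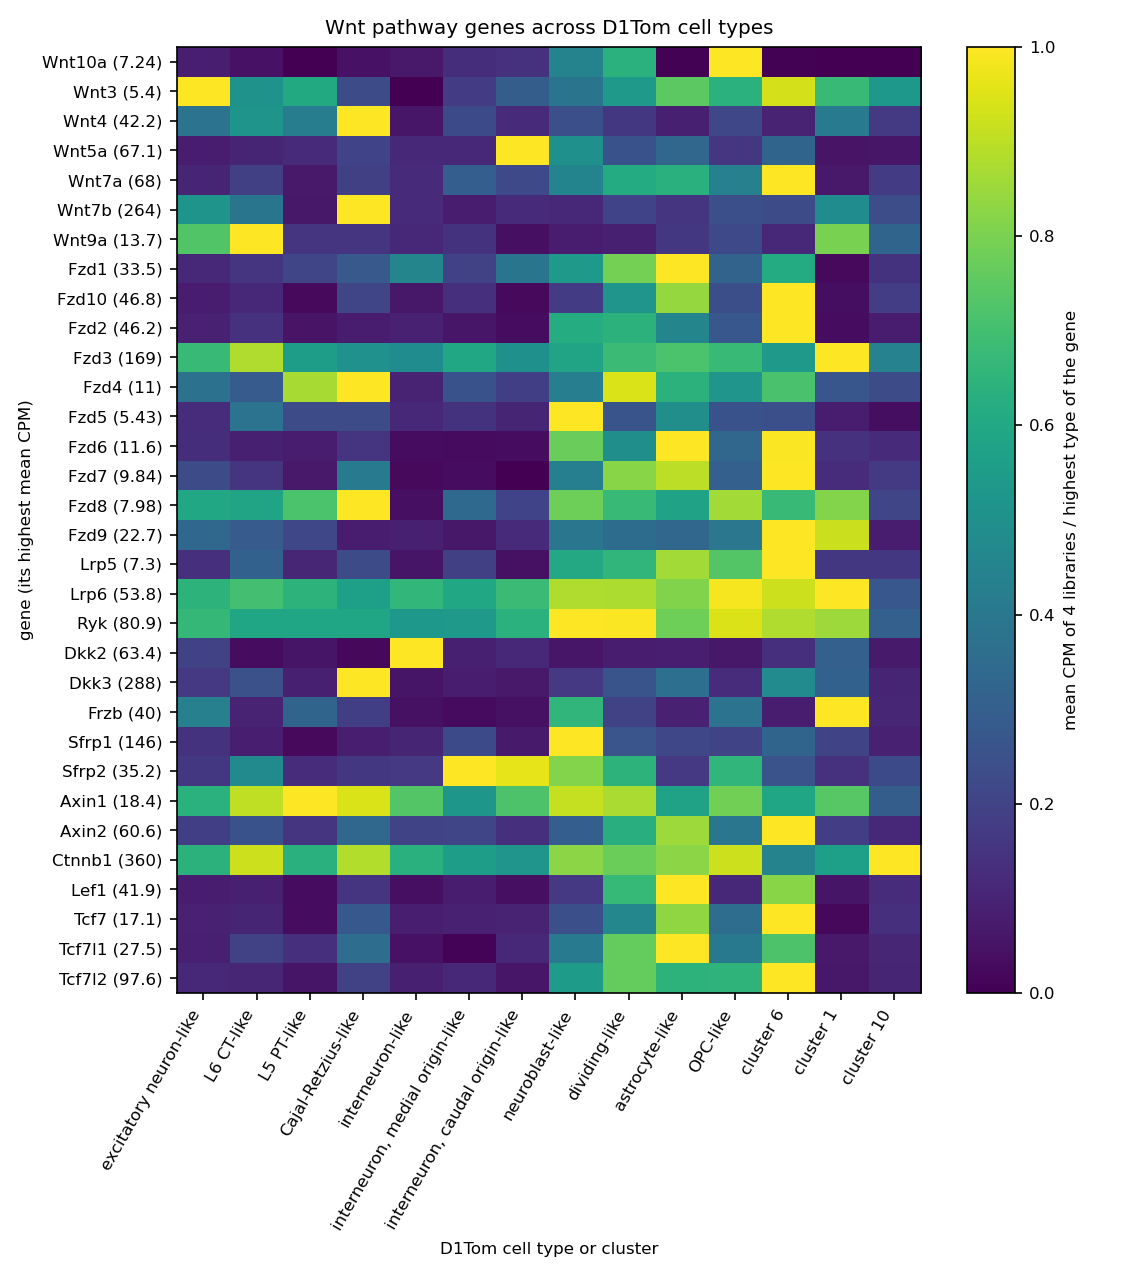
Mean CPM of 4 libraries for the 32 members whose highest type reached 5 CPM, across 14 D1Tom cell types or clusters (columns; OPC, oligodendrocyte precursor; CT, corticothalamic; PT, pyramidal tract). Each row is divided by the gene's highest type, whose mean CPM is printed beside the symbol, and rows run from ligands at the top to nuclear factors at the bottom.

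The cKO and control libraries were then compared over all D1Tom cells. Fzd2, Sfrp1, Wnt7a, Tcf7l2 and Wnt5a were higher in both cKO libraries than in both controls, and Apcdd1 was lower in both. None of these differences passed the test across all genes. Of 48 members 41 passed the filter on low counts, and 0 were called by edgeR's quasi-likelihood test after Benjamini-Hochberg adjustment at 0.05, where 0% of the 14508 genes tested were called. DESeq2 called 0 members too. At an unadjusted p under 0.05 there were 5 members (12.2%), against 2.21% of all genes. Both cKO libraries lay above both controls for 10 members, against 9.7% of all genes, and below them for 6, against 13.7%, while 25 overlapped. The median log2 fold change, cKO over control, was 0.05 over the members and -0.01 over all genes.

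Fzd2, a Frizzled receptor, stood at 10.6 and 9.34 CPM in control 1 and control 2 and at 18.0 and 14.9 CPM in cKO 1 and cKO 2, means of 9.98 ± 0.897 and 16.4 ± 2.20 CPM (SD, n = 2 each). Both cKO libraries were higher and the groups did not overlap. The log2 fold change was 0.78 (SE 0.16, edgeR adjusted p 0.998), and 0.61 to 0.84 over 13 alternatives. Within cell types Fzd2 was higher in cKO in 6 of 7 D1Tom types. In neuroblast-like cells it stood at 18.8 and 19.0 CPM in the controls against 44.2 and 32.3 CPM in cKO, and in astrocyte-like cells at 15.2 and 17.3 against 30.7 and 21.2 CPM. The groups did not overlap in either type, but the neuroblast-like control values rest on 4 and 8 counts. Astrocyte-like cells join clusters 8 and 13, of which the libraries held different shares. In cluster 8 Fzd2 stood at 50.0 and 23.9 against 45.4 and 22.2 CPM, lower in cKO within both preparation batches, and in cluster 13 at 11.0 and 9.46 against 18.1 and 18.7 CPM, without overlap. In dividing-like cells, where it stood at 31.7 and 29.1 against 32.8 and 24.9 CPM, the groups overlapped.

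Wnt7a, a ligand that signals to brain endothelium and oligodendrocyte precursors, stood at 21.4 and 16.9 CPM in the controls against 26.7 and 25.5 CPM in cKO (log2 0.51 ± 0.16 SE, adjusted p 0.998 by edgeR). Wnt5a stood at 10.5 and 12.7 against 14.5 and 18.2 CPM (log2 0.57 ± 0.25 SE, adjusted p 0.998 by edgeR). Over 13 alternatives the value ran from 0.40 to 0.64 for Wnt7a and from 0.27 without cKO 2 to 0.81 without cKO 1 for Wnt5a. Both cKO libraries were the higher for each ligand, and the groups did not overlap. Of the other ligands, Wnt7b stood at 88.6 and 76.5 against 84.1 and 53.8 CPM, with cKO 2 the lowest, the groups overlapping and cKO the lower library within both batches. Wnt5b and Wnt3 were lower and Wnt2 higher in both cKO libraries, all by less than 1 CPM between group means.

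Tcf7l2 stood at 32.7 and 38.4 CPM in the controls against 45.8 and 52.7 CPM in cKO, without overlap (log2 0.54 ± 0.20 SE, adjusted p 0.998 by edgeR). Over 13 alternatives it ran from 0.32 without cKO 2 to 0.74 without cKO 1. Committed oligodendrocyte precursor-like cells, where Tcf7l2 was highest, were 15, 28, 39 and 44 cells in control 1, control 2, cKO 1 and cKO 2, and oligodendrocyte precursor-like cells 361, 302, 319 and 517. The part of these cell numbers in the result was not tested. Within the 11 types tested Tcf7l2 was higher in cKO in 9, and the groups did not overlap in 3 of the 11, with cKO above in 2. Ctnnb1 stood at 174 and 297 CPM in the controls against 244 and 354 CPM in cKO. The groups overlapped, but within each preparation batch, control 1 with cKO 1 and control 2 with cKO 2, the cKO library was the higher (log2 0.42 ± 0.37 SE, adjusted p 0.998 by edgeR). Without cKO 2 the difference was -0.01. Axin2, the feedback readout, stood at 21.7 and 25.6 against 24.7 and 26.8 CPM (log2 0.19 ± 0.20 SE, adjusted p 0.998 by edgeR), with overlapping groups and cKO the higher library within both batches.

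Among the remaining members, Sfrp2, which binds Wnt ligands, stood at 12.6 and 10.6 against 14.7 and 12.3 CPM. The groups overlapped, and within both batches cKO was the higher. Fzd5 stood at 0.715 and 1.31 CPM against 1.59 and 1.54 CPM, at the low end of what was tested. Ryk, an alternative Wnt receptor, stood at 61.7 and 56.4 against 62.3 and 58.8 CPM, and Dkk3 at 75.0 and 64.1 against 69.4 and 61.6 CPM. Fzd3 stood at 96.0 and 118 against 99.0 and 107 CPM. The groups overlapped for these 3 genes. Within both batches cKO was the higher library for Ryk and the lower for Dkk3, and for Fzd3 the batches differed in direction. By role, 1 of 10 ligands, 1 of 10 Frizzled receptors, 0 of 5 coreceptors, 1 of 8 secreted inhibitors, the membrane inhibitor, 0 of 3 destruction complex genes and 1 of 4 nuclear factors reached an unadjusted p under 0.05. Dkk1, Wnt1, Wnt2b, Wnt9b, Wnt10b, Wnt11 and Wnt16 did not pass the filter.

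**Figure D2:**
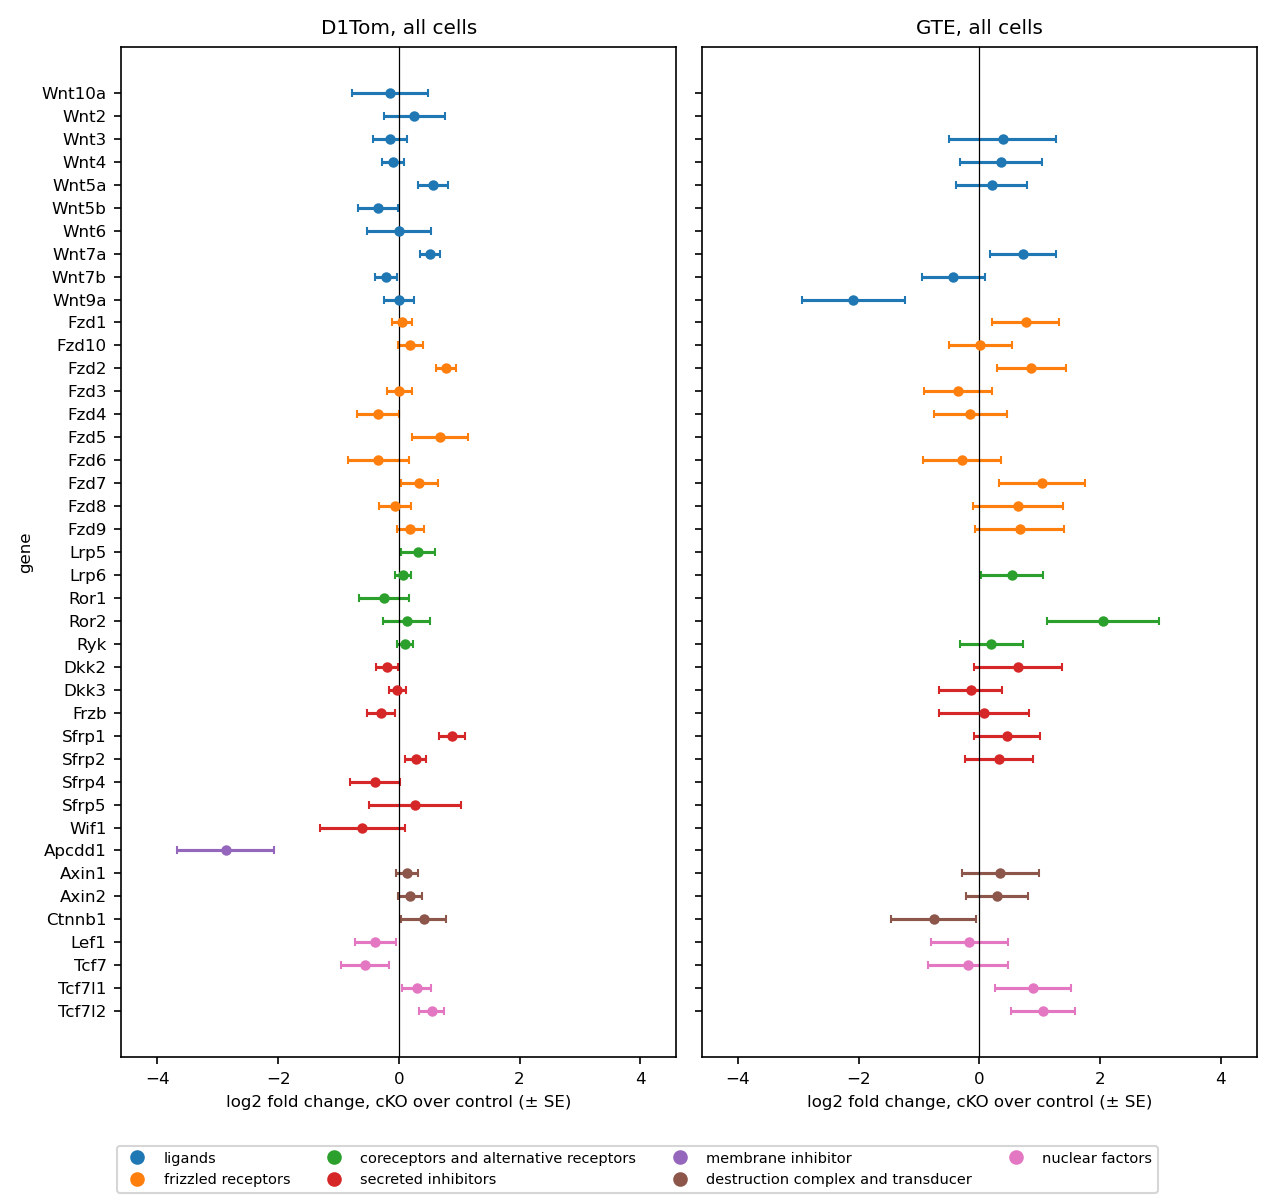
Log2 fold change, cKO over control, with its standard error (bars) for the members tested over all cells of each sort, coloured by role. In D1Tom, Apcdd1 lies lowest at -2.87 and Sfrp1 highest at 0.88; in GTE, Wnt9a lies lowest at -2.09 and Ror2 highest at 2.04, with wider bars.

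**Figure D3:**
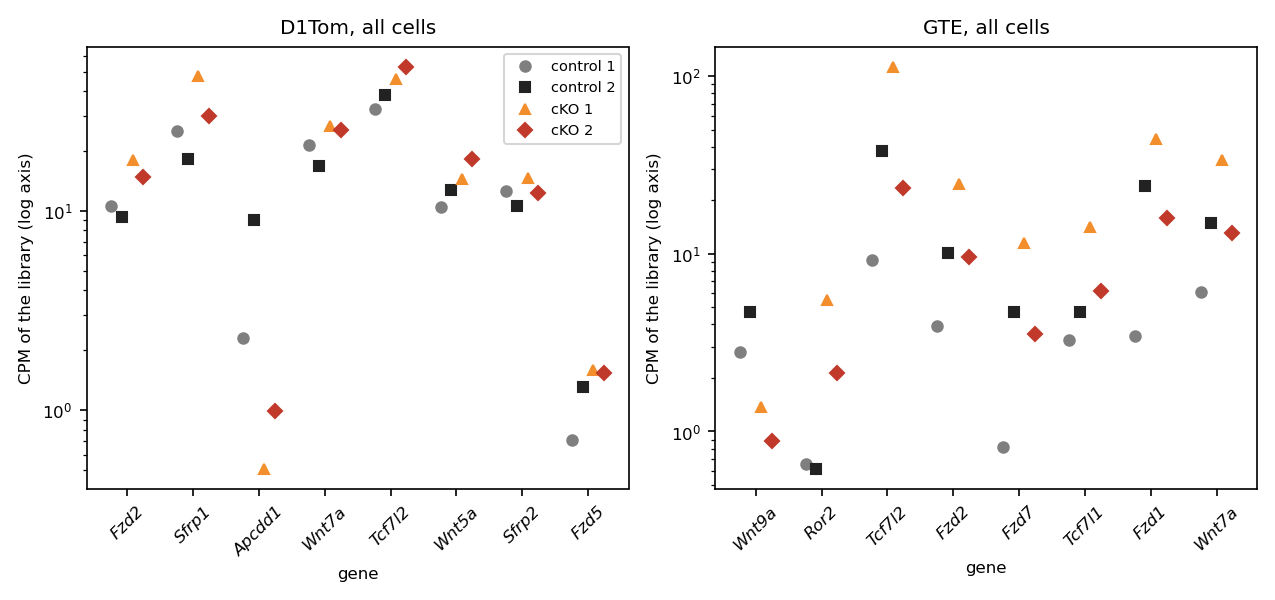
Level by library (CPM, log axis, 4 libraries per sort) for the 8 members with the smallest unadjusted p, in order of p. In D1Tom the groups are apart for all but Sfrp2; in GTE, cKO 1 is the highest library for 7 of the 8 genes.

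Apcdd1, which inhibits Wnt signalling at the cell surface and is known in brain endothelium, stood at 2.31 and 9.06 CPM in the D1Tom controls against 0.509 and 0.988 CPM in cKO, from 84, 326, 15 and 27 counts. Both cKO libraries were lower, and control 2 was the highest. The log2 fold change was -2.87 (SE 0.80, edgeR adjusted p 0.998), and without control 2 it was -1.49. Endothelial-like cells, led by Cldn5, Igfbp7, Rgs5 and Flt1, made up 0.717%, 6.22%, 0.605% and 2.60% of control 1, control 2, cKO 1 and cKO 2. Summed over 6 endothelial markers the libraries stood at 112, 470, 65.1 and 241 CPM. These cells held 32.1%, 81.6%, 20.0% and 63.0% of the Apcdd1 counts.

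Apcdd1 was lower in cKO both inside and outside the endothelial-like cells. Inside them it stood at 38.9 and 72.7 CPM in the controls against 6.18 and 11.1 CPM in cKO. These values came from 27, 266, 3 and 17 counts in 23, 149, 17 and 80 endothelial-like cells, too few to be fitted. Outside them it stood at 1.597 and 1.86 against 0.414 and 0.388 CPM. With the endothelial-like cells left out, an alternative added after seeing the data, the log2 fold change was -2.04 (SE 0.45, edgeR adjusted p 0.928). Apcdd1 did not pass the filter on low counts within any fitted D1Tom type, so no type was tested for it. In layer 6 corticothalamic-like cells, picked for having the highest mean of the fitted types, it stood at 3.78 and 4.04 against 0.89 and 1.00 CPM. With 15 and 27 Apcdd1 counts over all cells of cKO 1 and cKO 2, the cKO values in layer 6 corticothalamic-like cells rest on very few counts. The range over libraries there overlapped those of 12 other fitted types. These cells are also part of those outside the endothelial-like cells, so their order is not a separate observation.

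Other members also had counts in the endothelial-like cells. Inside those cells, Lef1 stood at 124 and 150.1 CPM in the controls against 155 and 133 CPM in cKO, Fzd6 at 124 in both controls and 134 in both cKO, and Fzd4, the receptor for Wnt ligands and Norrin in vessels, at 37.5 and 47.9 against 51.5 and 44.5 CPM. Tcf7 stood at 131 and 112 against 107 and 91.5 CPM. Only Tcf7 was lower in both cKO libraries, and Fzd6 was higher in both. Over all D1Tom cells, Lef1 stood at 16.5 and 25.3 against 12.3 and 18.0 CPM and Fzd6 at 7.34 and 15.6 against 6.00 and 11.2 CPM, with control 2 the highest and cKO 2 the second highest library for both. Endothelial-like cells held 60.4% of the Lef1 counts of control 2 and 14.3% of those of control 1. The Lef1 log2 fold change was -0.39 (SE 0.34, edgeR adjusted p 0.998) over all cells, 0.01 without control 2 and -0.20 without the endothelial-like cells.

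**Figure D4:**
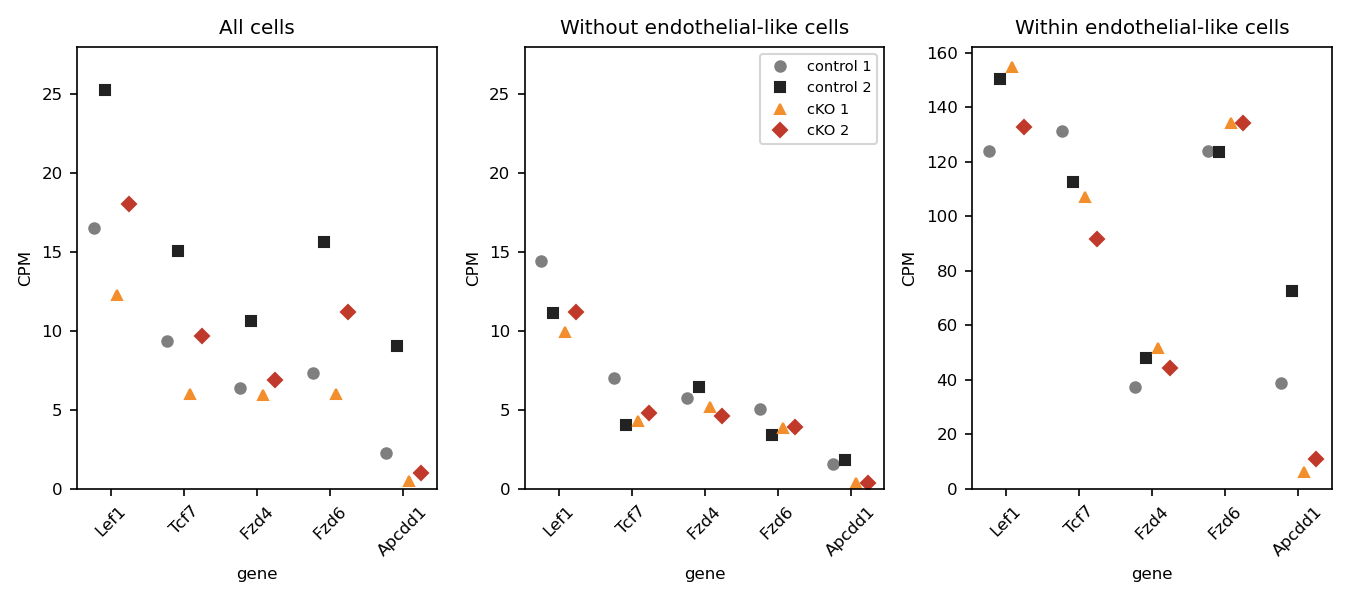
CPM of 5 members in the 4 D1Tom libraries over all cells (left), without endothelial-like cells (middle) and within them (right, on a longer axis). Control 2 is highest for all 5 genes over all cells, and Apcdd1 alone is lower in both cKO libraries in all 3 panels.

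Sfrp1, a secreted inhibitor that binds Wnt ligands, stood at 25.3 and 18.2 CPM in the D1Tom controls against 47.7 and 29.8 CPM in cKO, means of 21.8 ± 5.00 and 38.8 ± 12.6 CPM (SD, n = 2 each). Both cKO libraries were higher without overlap, and cKO 1 was the highest. The log2 fold change was 0.88 (SE 0.22, edgeR adjusted p 0.998). Neuroblast-like cells, led by Igfbpl1, Dlx2, Sp9 and Sp8, numbered 32 and 33 in the controls and 217 and 211 in cKO. They held 3.58% and 1.83% of the Sfrp1 counts in the controls and 44.0% and 37.3% in cKO. With these cells left out, an alternative added after seeing the data, the log2 fold change was 0.28 (SE 0.19, edgeR adjusted p 1.00), and with each value capped at 1 it was also 0.28.

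Within neuroblast-like cells Sfrp1 stood at 155 and 28.5 CPM in the controls against 282 and 117 CPM in cKO, and the groups overlapped (log2 1.32 ± 0.62 SE, adjusted p 0.910 by edgeR). Over 9 alternatives the value ran from 0.50 without control 2 to 2.76 without control 1, and in 8 of them Sfrp1 was not called. With the replicate number, which is the preparation batch in D1Tom, as a block the value was 1.40 (SE 0.30, edgeR adjusted p 0.00103), and 0.851% of the 10227 genes tested were called. Within each batch cKO was the higher library. At the finer clustering 99 cells formed a cluster led by Ptgds and Dcn, most of them neuroblast-like at the main resolution, 5, 3, 63 and 28 of them from control 1, control 2, cKO 1 and cKO 2. There Sfrp1 stood at 1124, 48.0, 749 and 488 CPM, and Dcn, a fibroblast gene, at 0, 1512, 0 and 541 CPM. Slc1a3, a gene of radial glia and astrocytes, stood at 4243, 1248, 4770 and 2594 CPM and Pax6, a gene of cortical progenitors, at 290.1, 24.0, 464 and 283 CPM. The marker rule called the cluster fibroblast-like. That name is not used here, since the cluster's leading gene Dcn was listed at 0 in the cells of control 1 and cKO 1. In neuroblast-like cells outside the cluster Sfrp1 stood at 10.8 and 26.4 CPM in the controls against 122 and 85.2 CPM in cKO, without overlap. These control values rest on 2 counts in 1 of 27 cells and 10 counts in 5 of 30 cells. The cluster held 31 of the 33 Sfrp1 counts in neuroblast-like cells of control 1. In the other cells of the libraries Sfrp1 stood at 24.6 and 18.1 against 28.7 and 20.7 CPM, with overlap.

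**Figure D5:**
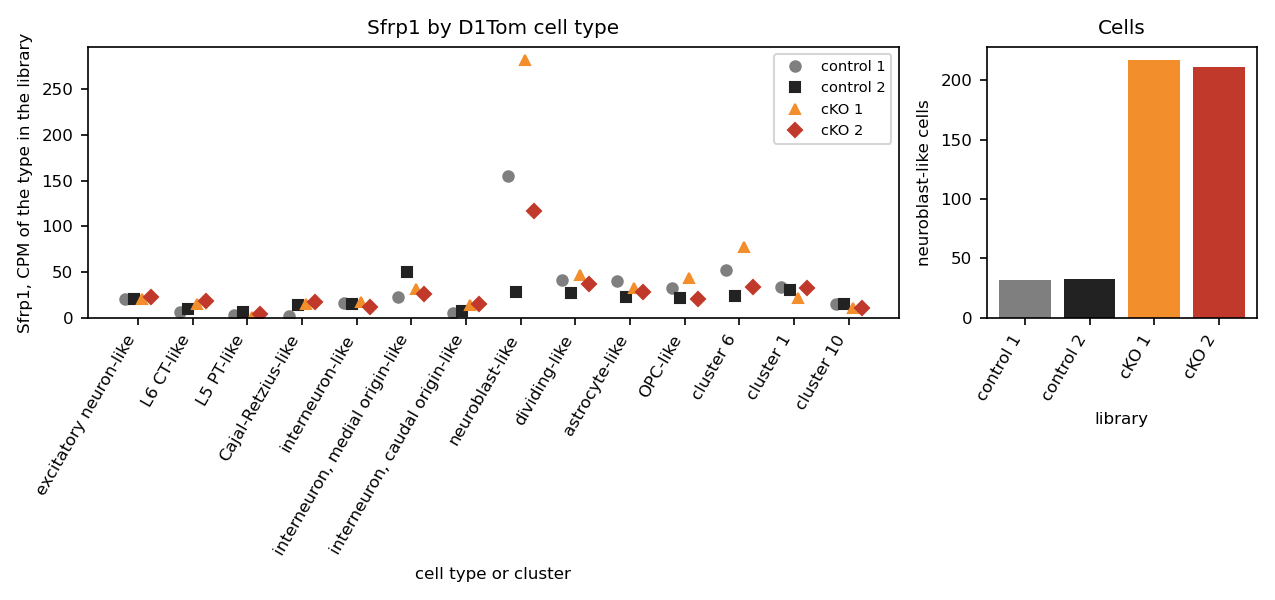
Left, Sfrp1 CPM in each D1Tom cell type and library (points); right, the number of neuroblast-like cells per library (bars). Sfrp1 lies above 100 CPM in neuroblast-like cells of control 1, cKO 1 and cKO 2 and in no other type shown, and these cells number 32, 33, 217 and 211.

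The same comparison was made over all GTE cells. Wnt9a was lower and Ror2, Tcf7l1 and Sfrp1 were higher in both cKO libraries than in both controls, but the spread between the GTE libraries was wide and no member passed the test. Of 45 members 30 passed the filter, and edgeR and DESeq2 each called 0, where edgeR called 0.0332% of 12042 genes. At an unadjusted p under 0.05 there were 2 members (6.67%) against 5.22% of all genes. Both cKO libraries lay above both controls for 6 members, against 19.6% of all genes, and below them for 2, against 6.67%. The median log2 fold change was 0.34 over the members and -0.05 over all genes.

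Wnt9a, a ligand, stood at 2.79 and 4.71 CPM in the controls against 1.38 and 0.884 CPM in cKO (log2 -2.09 ± 0.85 SE, adjusted p 0.848 by edgeR). Ror2, a receptor tyrosine kinase for Wnt5a, stood at 0.657 and 0.615 CPM in the controls against 5.52 and 2.12 CPM in cKO (log2 2.04 ± 0.93 SE, adjusted p 0.910 by edgeR). The groups of both genes were apart, at levels of a few CPM. Tcf7l2 stood at 9.19 and 37.9 against 112 and 23.3 CPM, Fzd1 at 3.45 and 24.0 against 44.4 and 15.9 CPM, Fzd2 at 3.94 and 10.0 against 24.7 and 9.55 CPM, and Wnt7a at 6.07 and 15.0 against 33.7 and 13.1 CPM. In all 4 genes cKO 1 was the highest and control 1 the lowest library, and cKO 2 lay between the controls. Oligodendrocyte precursor-like cells made up 28.6% of GTE cKO 1 and 3.60% to 6.51% of the other libraries. Cluster 0, which had the second-highest mean of Fzd1, Fzd2 and Wnt7a among GTE types, made up 35.3% against 8.14% to 13.2%. The part of these cell shares in the values was not tested.

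Tcf7l1 stood at 3.28 and 4.71 CPM in the GTE controls against 14.2 and 6.19 CPM in cKO, and Fzd7 at 0.821 and 4.71 against 11.4 and 3.54 CPM. The groups were apart for Tcf7l1 and overlapped for Fzd7. Ctnnb1 stood at 302 and 420.2 CPM in the controls against 217 and 300.0 CPM in cKO, lower in both (log2 -0.76 ± 0.70 SE, adjusted p 0.984 by edgeR), and its log2 fold change was below 0 in all 8 GTE types tested. Over all cells it was -0.25 without cKO 1 and -1.47 without cKO 2, the ends of its range over 11 alternatives. Axin2 stood at 13.5 and 34.8 against 46.9 and 28.6 CPM and Lef1 at 5.42 and 5.53 against 11.0 and 3.18 CPM, with overlap. The Lef1 means were 5.48 CPM in the controls and 7.11 CPM in cKO, while its log2 fold change, fitted with TMM scaling that the CPM lack, was below 0. Fzd6, Tcf7, Dkk3 and Fzd4 also had a higher cKO mean in CPM and a fitted value below 0 in GTE. Without control 1 the fitted sign of Axin2 and Lef1 was the opposite, with Axin2 at -0.11 in place of 0.29 and Lef1 at 0.03 in place of -0.17. Apcdd1 had 0 counts in control 1, control 2 and cKO 1, which allows up to 0.492, 0.615 and 0.592 CPM for counting error only, and it stood at 0.354 CPM in cKO 2.

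Whether the genotype effect differed between the sorts was tested as an interaction over all 8 libraries. Of 40 members, edgeR and DESeq2 each called 0, where 0% of 14026 genes were called. Wnt9a was the 1 member with an unadjusted p under 0.05 (against 3.22% of all genes), with an interaction of -2.10 on the log2 scale (SE 0.68, edgeR adjusted p 0.941). In D1Tom it stood at 5.44 and 3.78 CPM against 4.98 and 3.84 CPM, with overlap. The interaction was 1.94 (SE 0.89, edgeR adjusted p 0.941) for Ror2 and -1.17 (SE 0.70, edgeR adjusted p 0.941) for Ctnnb1, whose fold change was above 0 in 12 of 14 D1Tom types. The median interaction was 0.38 over the members and -0.03 over all genes.

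Within cell types the level of a member was compared apart from the number of cells of that type. In the 14 D1Tom types together, 270 tests of members were made. EdgeR called 0, against 0.00283% of all 141544 tests, and DESeq2 called 0. At an unadjusted p under 0.05 there were 5 (1.85%), against 2.09% of all tests. Both cKO libraries lay above both controls in 43 (15.9%), against 13.6%, and below them in 36 (13.3%), against 13.4%. These shares lie near those of all genes.

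Lef1 in astrocyte-like cells was 1 of the 5, at 74.5 and 39.0 CPM in the controls against 32.2 and 22.02 CPM in cKO (log2 -1.02 ± 0.36 SE, adjusted p 0.886 by edgeR). Both cKO libraries were lower, cKO 1 by little from control 2. The type joins cluster 8, led by Ptprz1 and Gja1, with 27, 242, 107 and 491 cells, and cluster 13, led by Gfap and Serpinf1 with Cd74 and H2-Ab1 among its leading genes, with 160, 151, 115 and 148 cells. In cluster 13 Lef1 stood at 82.4 and 57.8 against 40.4 and 38.9 CPM, without overlap. In cluster 8 it stood at 8.34 and 23.1 against 22.7 and 15.4 CPM, with overlap, and the control 1 value rests on 2 counts. Most control 1 cells of the type were in cluster 13 and most cKO 2 cells in cluster 8.

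Without control 2 the astrocyte-like fit called Lef1 (log2 -1.45, edgeR adjusted p 0.00401), Tcf7 (log2 -1.82, edgeR adjusted p 0.00721), Wnt7b (log2 2.05, edgeR adjusted p 0.00210) and Ctnnb1 (log2 1.20, edgeR adjusted p 0.0111), together with 12.7% of all genes. That fit compares both cKO libraries with control 1 alone, whose spread is assumed to equal that of the cKO group. In cluster 13 Wnt7b stood at 6.50 and 25.9 CPM in the controls against 37.7 and 33.9 CPM in cKO, and in cluster 8 at 58.4 and 66.4 against 65.7 and 52.3 CPM. Tcf7 in cluster 13 stood at 32.0 and 17.4 against 12.6 and 11.5 CPM, and in cluster 8 at 20.9 and 0.840 against 8.92 and 4.84 CPM, with overlap. The control values of Tcf7 in cluster 8 rest on 5 and 2 counts. Ctnnb1 in cluster 13 stood at 159 and 262 against 307 and 321 CPM. The groups were apart in cluster 13 for all 4 genes. This order is not a separate observation, since the genes were picked by a fit with control 1 as its only control. Most control 1 cells of the type were in cluster 13. The share of all genes that were apart in cluster 13 is not given here.

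The other 4 were Axin1 in cluster 10, Fzd3 in cluster 1, Fzd4 in layer 5 pyramidal tract-like cells and Dkk3 in neuroblast-like cells. Axin1, the scaffold of the destruction complex, stood at 1.52 and 1.67 CPM in the controls against 10.0 and 8.40 CPM in cKO (log2 2.53 ± 0.78 SE, adjusted p 0.999 by edgeR). Cluster 10 had 214, 59, 341 and 468 cells in control 1, control 2, cKO 1 and cKO 2, at a median of 5711.5 counts. The Axin1 control values therefore rest on very few counts. Fzd4 stood at 11.6 and 17.1 against 3.06 and 6.25 CPM (log2 -1.72 ± 0.57 SE, adjusted p 0.987 by edgeR). Fzd3 stood at 171 and 251 against 113 and 142 CPM, and Dkk3 at 32.8 and 33.3 against 79.8 and 47.7 CPM. The groups were apart in each of the 4. Without control 2, Tcf7l2 in Cajal-Retzius-like cells was called, where control 1 is listed at 0, control 2 stood at 23.2 CPM, and the cKO libraries at 13.8 and 40.3 CPM. In that fit 2.97% of genes were called.

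In the 8 GTE types, 66 tests of members were made, edgeR and DESeq2 each called 0, and 0% of all 46993 tests were called. At an unadjusted p under 0.05 there were 2 (3.03%), against 2.77%. Both cKO libraries lay above both controls in 9 (13.6%), against 17.4%, and below them in 6 (9.09%), against 9.77%. Wnt7b in dividing-like cells stood at 51.6 and 146 CPM in the controls against 24.8 and 26.1 CPM in cKO (log2 -2.15 ± 0.72 SE, adjusted p 0.837 by edgeR), apart, and Tcf7l2 in cluster 1 at 4.64 and 12.4 against 74.7 and 7.25 CPM (log2 1.74 ± 0.85 SE, adjusted p 1.00 by edgeR), with overlap and cKO 1 the highest.

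Leaving out 1 GTE library added calls in 3 of these types. Without control 1, Wnt7b in dividing-like cells was called (log2 -2.63, edgeR adjusted p 0.0338), with 0.195% of genes. Without cKO 2, Tcf7l2 was called in cluster 1 (log2 2.49, edgeR adjusted p 0.0422), with 2.64% of genes, and Ctnnb1 (log2 -1.96, edgeR adjusted p 0.0451) and Dkk3 in cluster 3, with 8.6% of genes. In cluster 3 Dkk3 is listed at 0 in cKO 1 and stood at 39.9 CPM in cKO 2, within the 33.8 and 68.4 CPM of the controls. Without control 2, Lrp6 and Tcf7l2 were called in dividing-like cells, with 5.81% of genes. There both are listed at 0 in control 1, and Tcf7l2 stood at 31.7 CPM in control 2 against 68.2 and 66.8 CPM in cKO.

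The other genes of the pathway were taken from a list of 76, of which 71 were tested in D1Tom and 66 in GTE. In D1Tom 0 were called and 3 (4.23%) reached an unadjusted p under 0.05, with both cKO libraries above the controls in 8 and below them in 14, and 9.7% and 13.7% of all genes in the same order. Rspo2, a secreted enhancer of Wnt signalling, stood at 10.6 and 9.01 CPM in the controls against 4.95 and 4.50 CPM in cKO (log2 -0.98 ± 0.21 SE, adjusted p 0.998 by edgeR). Nkd2, a feedback inhibitor, stood at 13.1 and 11.8 against 8.17 and 7.36 CPM, and Celsr1, a planar polarity cadherin, at 2.501 and 3.78 against 5.36 and 6.08 CPM. The groups were apart for all 3. In GTE 0 were called, and Gpc6 (9.52 and 38.3 against 121 and 34.7 CPM), Tle2 and Cthrc1 had the smallest p, with cKO 1 the highest library for each.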

How the data were processed

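Whole-number counts per gene and cell from 10x 3' libraries were deposited by the authors, 1 table per sort. Per the submitters' processing notes, Cell Ranger 2.1.1, UMI-tools 0.5.4, STAR 2.5.2b and featureCounts (Subread 1.6.2) were among the tools used, with the builds mm10 and GRCm38.p6. The annotation release and strand setting are not given in the sources used here.

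For each library the counts of all cells, or of the cells of 1 type, were added up and tested with edgeR 4.0.16 (quasi-likelihood, TMM scaling, filterByExpr, Benjamini-Hochberg over all genes tested, 0.05). On simulated data with 1 dispersion for all genes, this test recovered 15.2% of log2 changes of 1 in D1Tom and 0% in GTE. For log2 changes of 2 it recovered 98% and 10.3%. A count of 0 called members therefore does not show that none changed. DESeq2 1.42.0 was an alternative. CPM divides a sum by the total of the same cells. The standard error is the log2 fold change divided by the square root of F. In D1Tom the labels give same-numbered libraries a shared preparation day, and the deviations of these libraries correlated at 0.548 over 14508 genes. The replicate number is therefore called a batch there.

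Cells with at least 500 counts were clustered (scanpy 1.11.5) on 2000 variable genes and 30 principal components with Leiden resolution 1, without the members and the listed pathway genes. A cluster was named when at least 3 markers of 1 of 26 lists were 2-fold higher in it. The median over that list also had to be at least 2-fold. Of the lists, it had to have the most markers, at least 1, among the cluster's 10 leading genes. The study's own cell types may differ from these rebuilt names. Doublets were not removed; leaving out the cells with the highest doublet scores (0.8% per 1000 cells) was an alternative.

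The named members were those that passed the test, the 8 with the smallest p in each sort, the 3 highest over other named types in each type among members of at least 20 CPM in every library, the highest of each role, and Axin2, Lef1, Ctnnb1, Tcf7l2 and Apcdd1. Other members named, and the promoters shown, were picked with their values in view. The members and lists were chosen with earlier results of these data known. Alternatives also covered scaling, the low-count filter, each library left out, values capped at 1 and clustering resolution.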

Additional observations from a re-analysis of the deposited data

Results flagged for a closer look

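Wnt5b and Ror1 differed in direction between the sorts, with every cKO library below every control in D1Tom and above every control in GTE. Wnt5b, a ligand, stood at 2.42 and 2.03 CPM in the D1Tom controls and 1.83 and 1.54 CPM in cKO, a difference of means of -0.54 CPM. In GTE it stood at 0.492 and 0 against 0.789 and 0.707 CPM, a difference of 0.502 CPM that rests on 3, 0, 4 and 4 counts. Ror1, a receptor, stood at 1.15 and 1.22 against 0.882 and 1.02 CPM in D1Tom, a difference of -0.236 CPM. In GTE it stood at 0 and 0.205 against 0.592 and 0.884 CPM, a difference of 0.635 CPM from 0, 1, 3 and 5 counts. The interaction of genotype and sort was 1.36 (SE 1.32, edgeR adjusted p 0.941) for Wnt5b and 2.87 (SE 1.54, edgeR adjusted p 0.941) for Ror1, so neither difference passed the test.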

How the results depend on the processing

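The counts of members called over all D1Tom cells, over all GTE cells and in the interaction were 0 under every alternative run, the replicate block included. Within D1Tom types the count was 1 with the replicate block and 0 to 5 with 1 library left out, and within GTE types it was 0 to 3 with 1 library left out. GTE numbers were not used as batches, and same-numbered deviations correlated at -0.352 over 12042 genes. At the finer clustering the same type held the highest level for 9 of 21 members considered in D1Tom and for 5 of 17 in GTE, and the cause was not tested. Of 38 log2 fold changes of single members, 33 kept their sign in all alternatives run, and 7 of 440 alternatives reversed one. Leaving out 1 library gave -0.82 to 0.011 for Lef1 and -0.0059 to 0.91 for Ctnnb1 over all D1Tom cells, with the sign reversed without control 2 and without cKO 2. In GTE it gave -0.11 to 0.89 for Axin2 (reversed without control 1), -0.79 to 0.25 for Lef1 (0.03 without control 1 and 0.25 without cKO 2) and -0.054 to 2.49 for Tcf7l2 in cluster 1 (reversed without cKO 1). Without the highest doublet scores Lef1 in GTE was 0.068. With 2 libraries a group and low GTE depth, members of a few CPM rest on few counts.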
